A study of Mus musculus with 24 samples.

Results

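Protein phosphatases were taken from the array by gene symbol: every named gene whose symbol begins with Ppp and a digit, Ppm1, Ptpn, Ptpr, Ptp4a or Dusp. The rule found 64 genes among the 8127 that could be named, measured by 78 probes, with 13 genes carrying several probes. The RNA came from kidneys and testes of mice kept under 137Cs γ-rays for 485 days, 22 h a day, and the question was how gene expression differs after irradiation at low dose rates. Unirradiated controls were set beside 3 dose rates, a low one of 0.032 μGy/min (21 mGy in all), a mid one of 0.65 μGy/min (420 mGy) and a high one of 13 μGy/min (8000 mGy). Each group held 3 arrays per tissue, 12 per tissue and 24 in all, described as biological replicates from 12 mice, and the tissues were removed as soon as irradiation ended. The labels give neither strain nor age, and they do not tie a kidney array to the testis array of the same mouse.

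Protein phosphatases remove the phosphate groups that kinases add. The PPP enzymes, which act on serine and threonine, share a few catalytic subunits and get their targets from many regulatory subunits, while the metal-dependent PPM enzymes work as single chains. Tyrosine phosphatases of the Ptpn and Ptpr families act inside the cell and at its membrane, and dual-specificity phosphatases (Dusp) include the enzymes that switch off MAP kinases. In the testis, calcineurin and a germ cell form of protein phosphatase 1 (PP1) are known for their roles in sperm motility. In the kidney, PP1 and calcineurin are known regulators of tubular ion transport.

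A level is given below as the log2 of the probe's signal after quantile normalization within its tissue, with a floor of 4. A probe was tested in a tissue if it was above background on at least 3 of that tissue's 12 arrays, and a difference was called at a Benjamini-Hochberg adjusted p under 0.05 in limma's moderated test over all probes tested. In kidney 42 of the 78 phosphatase probes were tested, for 37 genes, and in testis 46 probes, for 40 genes. These were 53.8% and 59.0% of the phosphatase probes, where 35.0% and 46.3% of all 9832 named probes were tested. Of the probes, 37 were tested in both tissues, 5 in kidney only, 9 in testis only and 27 in neither. The 21 genes with no tested probe were Dusp3, Dusp7, Dusp8, Dusp27, Ppm1h, Ppm1k, Ppp1cb, Ppp1r1c, Ppp1r3b, Ppp1r12b, Ppp1r12c, Ppp1r16b, Ppp1r37, Ppp3r1, Ppp4r2, Ppp4r3a, Ptp4a1, Ptpn7, Ptprc, Ptprn2 and Ptprt. Ptprc, the leukocyte phosphatase CD45, was among them with both of its probes. A probe below background says that its signal could not be told from noise, not that the gene was silent.

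The number of probes above background ranged from 8879 to 10985 on kidney arrays and from 12566 to 15806 on testis arrays. The tissue labels were checked against markers. All 3 proximal tubule probes were above background on all kidney arrays and on no testis array. The 1 spermatid probe was below background on every kidney array, as were all 3 Leydig cell probes, and averaged 15.92 on testis control arrays. Kidney arrays numbered 2 (1 each in the control, low and high groups) stood apart, with a median correlation of 0.961 to 0.962 with the other kidney arrays against 0.971 or more for the rest. In testis, the lowest medians, 0.943 and 0.948, belonged to high-rate arrays H139 and H134. Signal on mismatched control probes was 6.13% ± 0.61 of the matched signal in kidney control arrays, 5.64% ± 0.51 in low, 8.69% ± 0.19 in mid and 8.29% ± 0.82 in high (SD, n = 3 each). That measure therefore moved with the mid and high groups, and its part in the kidney differences cannot be told apart from dose rate.

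Both tissues expressed phosphatases of every family, but from partly different members. The 2 tables were normalized separately, so levels are set side by side here without a test. Of the 37 probes tested in both tissues, 11 were higher in kidney and 26 in testis. That is 70.3% higher in testis, where 62.8% of all 8797 probes tested in both were. The median kidney-minus-testis difference in log2 level was -1.38 over the 37 phosphatase probes and -0.55 over all 8797. In bulk tissue, a lower level can mean fewer cells of a type or less RNA per cell, and these cannot be told apart.

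**Figure D1:**
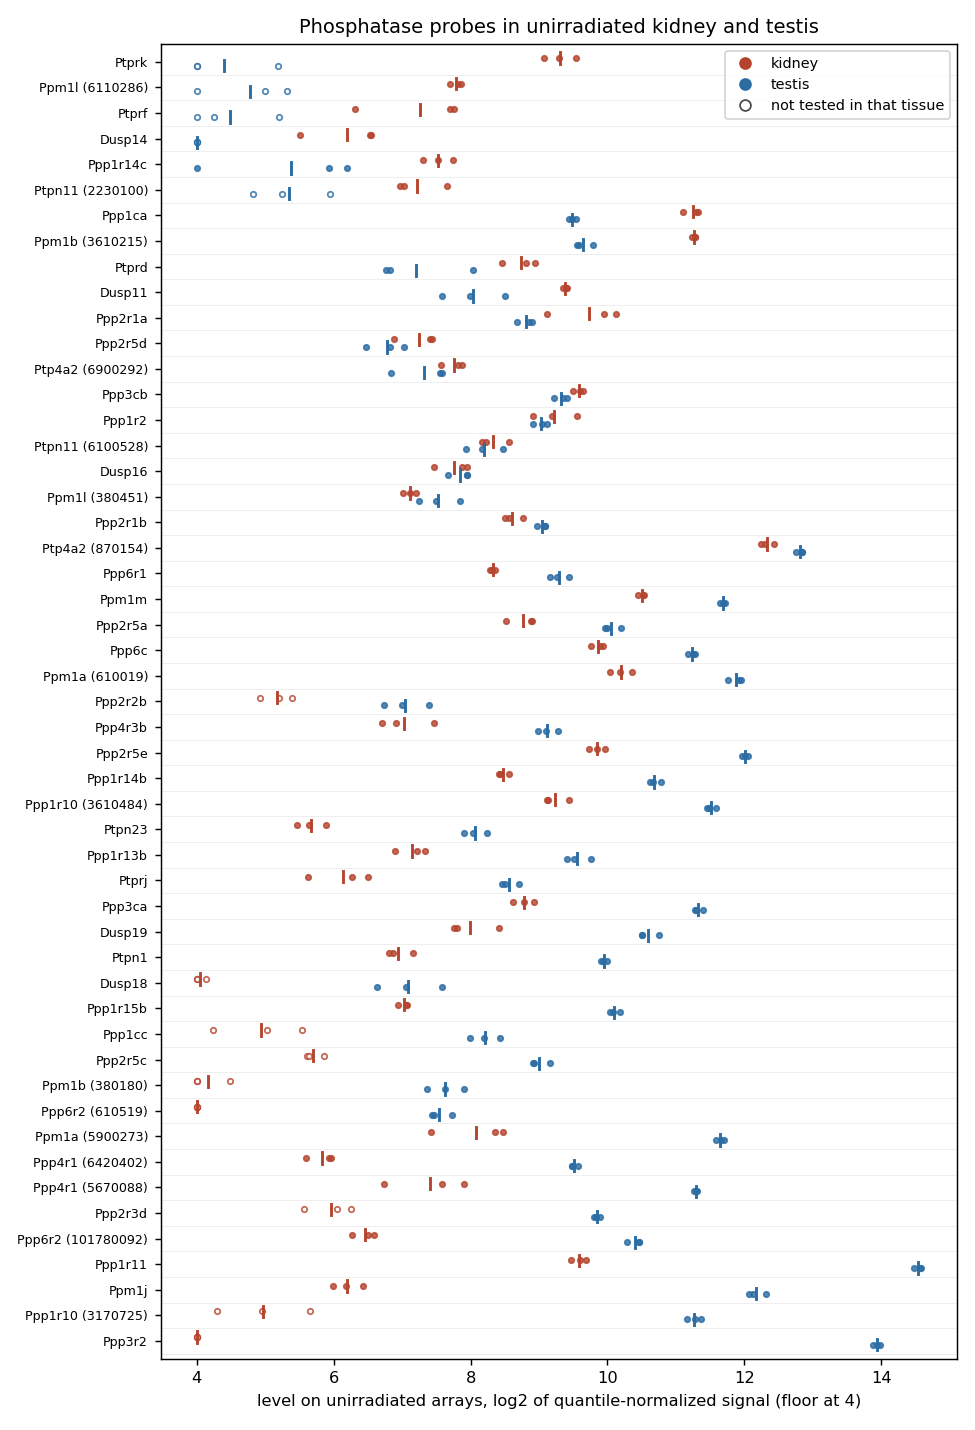
Level of each phosphatase probe tested in at least 1 tissue on the 3 unirradiated arrays of kidney and of testis (points, log2 of quantile-normalized signal), with the mean as a bar; rows run from the largest excess in kidney at the top to the largest excess in testis at the bottom, and open points mark a probe not tested in that tissue. Ptprk heads the rows and Ppp3r2 ends them.

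Catalytic subunits were split between the tissues. Ppp1ca, the α catalytic subunit of PP1, averaged 11.25 ± 0.12 in kidney control arrays and 9.49 ± 0.05 in testis control arrays (SD, n = 3 each, as for all levels in this account of the tissues). Ppp1cc, the γ subunit whose shorter splice form is known from mouse germ cells, was below background on every kidney array with its tested probe and averaged 8.20 ± 0.22 in testis. Its second probe, and the only probe of Ppp1cb, the β subunit, were tested in neither tissue. The α catalytic subunit of calcineurin, Ppp3ca, averaged 8.78 ± 0.15 in kidney and 11.32 ± 0.07 in testis. The β subunit, Ppp3cb, averaged 9.58 ± 0.08 in kidney and 9.32 ± 0.10 in testis, a kidney-minus-testis difference of 0.25. Ppp6c, the catalytic subunit of protein phosphatase 6, averaged 9.86 ± 0.09 in kidney and 11.23 ± 0.05 in testis.

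The regulatory subunits held the widest separations. Ppp3r2, the calcineurin B subunit known from testis, was at the floor of 4 on all 3 kidney control arrays and above background on none of the 12. It was 13.88, 13.99 and 13.94 on the 3 testis control arrays and above background on all 12 testis arrays. Its counterpart Ppp3r1, the widely expressed B subunit, had no tested probe in either tissue. Ppp1r11, an inhibitor of PP1, averaged 9.58 ± 0.11 in kidney and 14.54 ± 0.06 in testis. Ppp1r2, another PP1 inhibitor, averaged 9.22 ± 0.32 in kidney and 9.03 ± 0.10 in testis, so the groups of arrays overlapped. Ppp1r15b, the constitutive PP1 subunit that takes the phosphate off translation factor eIF2α, averaged 7.03 ± 0.07 in kidney and 10.10 ± 0.08 in testis. Ppp1r10, which targets PP1 to chromatin, averaged 9.23 ± 0.18 in kidney and 11.51 ± 0.07 in testis with probe 3610484. Its probe 3170725 was above background on no kidney array and on all 12 testis arrays, so the probes of this gene gave different pictures of the tissues.

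Among PP2A subunits all 8 genes were tested in testis and 5 in kidney. The scaffold subunit Ppp2r1a averaged 9.73 ± 0.54 in kidney and 8.81 ± 0.12 in testis. The other scaffold, Ppp2r1b, averaged 8.61 ± 0.14 in kidney and 9.05 ± 0.06 in testis. Of the B56 regulatory subunits, Ppp2r5e averaged 9.85 ± 0.12 in kidney and 12.01 ± 0.05 in testis, and Ppp2r5c was below background on every kidney array and averaged 9.0 ± 0.14 in testis. Ppp2r3d and Ppp2r2b, also regulatory subunits, were tested in testis only. Regulatory subunits of PP4 and PP6 had a higher log2 level in testis with every tested probe. Ppp4r1 probe 5670088 averaged 7.40 ± 0.60 in kidney and 11.29 ± 0.03 in testis, and Ppp6r1 averaged 8.32 ± 0.04 in kidney and 9.29 ± 0.14 in testis. By rank within the tissue, Ppp4r1 probe 5670088 stood at percentile 85.1 in kidney and 95.2 in testis, but Ppp6r1 at 89.5 and 87.7. Ppp6r2, another PP6 subunit, averaged 6.45 ± 0.16 in kidney and 10.40 ± 0.10 in testis with probe 101780092.

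The single-chain PPM enzymes ran both ways. Ppm1a averaged 10.19 ± 0.16 in kidney and 11.88 ± 0.10 in testis with its brighter probe. Ppm1j averaged 6.20 ± 0.22 in kidney, where it was above background on none of the 3 control arrays, and 12.17 ± 0.13 in testis. Ppm1m averaged 10.50 ± 0.05 in kidney and 11.69 ± 0.04 in testis. Ppm1b averaged 11.26 ± 0.03 in kidney and 9.64 ± 0.12 in testis with probe 3610215, whereas its probe 380180 was above background on no kidney array and on 11 testis arrays. Ppm1l was likewise split, with probe 6110286 at 7.79 ± 0.08 in kidney and below background on every testis array, and probe 380451 at 7.11 ± 0.09 in kidney and 7.53 ± 0.30 in testis. The annotation used here does not say which transcripts these probes match.

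Of 7 receptor tyrosine phosphatase genes, 4 were tested in kidney and 2 in testis, and Ptprk, Ptprf and Ptprd were higher in kidney. Ptprk, a receptor enzyme at cell contacts, was 9.54, 9.29 and 9.08 on kidney control arrays and above background on no testis array with probe 104230450. Its other probe was tested in neither tissue. Ptprf, a receptor enzyme of the LAR type, averaged 7.26 ± 0.82 in kidney and was below background on every testis array. Ptprd, of the same type, averaged 8.74 ± 0.25 in kidney and 7.21 ± 0.72 in testis. Ptprj went the other way, at 6.13 ± 0.46 in kidney and 8.56 ± 0.13 in testis. Among the enzymes inside the cell, Ptpn1, the PTP1B enzyme that acts on the insulin receptor, averaged 6.95 ± 0.18 in kidney and 9.95 ± 0.04 in testis. Ptpn23, an endosomal sorting protein, averaged 5.66 ± 0.21 in kidney, below background on all 3 arrays, and 8.06 ± 0.17 in testis. Ptpn11, the SHP-2 enzyme downstream of growth factor receptors, averaged 8.32 ± 0.21 in kidney and 8.19 ± 0.27 in testis with probe 6100528.

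Of the dual-specificity enzymes, Dusp19 averaged 7.99 ± 0.37 in kidney and 10.59 ± 0.14 in testis. Dusp11, which acts on the triphosphate end of RNA, averaged 9.39 ± 0.03 in kidney and 8.03 ± 0.46 in testis. Dusp14 was tested in kidney only and Dusp18 in testis only. Dusp16 was the only one of the 3 MAP kinase phosphatases tested, at 7.76 ± 0.26 in kidney and 7.85 ± 0.16 in testis. The small membrane-anchored phosphatase Ptp4a2 averaged 12.33 ± 0.10 in kidney and 12.81 ± 0.05 in testis with probe 870154.

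Promoters of 4 of these genes are shown because the genes separated the tissues so widely: Ppp3r2, Ppp1r11 and Ppm1j on the testis side, and Ptprk on the kidney side. Each runs from 250 bases before to 50 after the start, 5′ to 3′ on the gene's strand, from RefSeq's annotation of build GRCm38.p6. Where a gene had several annotated starts, the first one listed was used. The positions are chr4:49681934-49682233 (minus strand) for Ppp3r2, chr17:36951743-36952042 (minus) for Ppp1r11, chr3:104780806-104781105 (plus) for Ppm1j and chr10:28074570-28074869 (plus) for Ptprk. Capitals mark a GC box, GGGCGG on either strand.
Ppp3r2: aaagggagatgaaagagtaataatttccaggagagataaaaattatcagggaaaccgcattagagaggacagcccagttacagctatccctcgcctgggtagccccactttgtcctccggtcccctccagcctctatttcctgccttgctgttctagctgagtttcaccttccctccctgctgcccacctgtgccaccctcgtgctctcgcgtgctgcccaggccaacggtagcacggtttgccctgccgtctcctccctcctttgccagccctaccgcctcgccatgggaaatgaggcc
Ppp1r11: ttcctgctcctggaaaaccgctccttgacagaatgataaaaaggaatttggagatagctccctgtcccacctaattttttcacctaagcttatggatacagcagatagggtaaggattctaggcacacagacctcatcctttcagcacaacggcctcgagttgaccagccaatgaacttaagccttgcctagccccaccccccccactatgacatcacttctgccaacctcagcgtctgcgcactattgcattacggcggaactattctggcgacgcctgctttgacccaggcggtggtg
Ppm1j: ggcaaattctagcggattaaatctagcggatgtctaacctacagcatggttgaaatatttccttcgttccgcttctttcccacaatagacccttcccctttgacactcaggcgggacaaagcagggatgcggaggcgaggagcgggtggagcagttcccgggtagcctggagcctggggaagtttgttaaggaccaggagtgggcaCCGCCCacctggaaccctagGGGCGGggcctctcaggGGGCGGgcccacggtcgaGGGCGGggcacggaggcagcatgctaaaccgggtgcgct
Ptprk: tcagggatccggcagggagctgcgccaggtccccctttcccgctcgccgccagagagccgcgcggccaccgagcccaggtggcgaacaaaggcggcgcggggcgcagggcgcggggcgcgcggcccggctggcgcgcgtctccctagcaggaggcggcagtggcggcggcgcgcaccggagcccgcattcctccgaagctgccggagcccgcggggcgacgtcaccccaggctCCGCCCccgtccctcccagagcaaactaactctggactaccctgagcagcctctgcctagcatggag
No GC box was found in the Ppp3r2 or Ppp1r11 window, 4 in that of Ppm1j and 1 in that of Ptprk. The Ppm1j window was set on a start downstream of the annotated gene start (chr3:104780952), so its count holds for that window only. The base composition was 57.0% G or C for Ppp3r2, 51.3% for Ppp1r11, 60.7% for Ppm1j and 75.0% for Ptprk, against a median of 52.7% over all 32851 promoters in the table. A GC box stood in 35.7% of all those promoters, and in 46 of the 65 promoters given for 54 of the phosphatase genes (70.8%). The TATA box TATAAA and the cyclic AMP response element TGACGTCA, searched on both strands, were in none of the 4 windows and in 13.6% and 1.79% of all promoters. Each was in 4 of the 65 phosphatase promoters (6.15%). These matches describe letters in a window and were not tested against the levels.

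Across dose rates, no phosphatase probe was called in either tissue. In kidney, limma called none of 42 phosphatase probes at the low, mid or high rate or in the trend over dose rates, where it called 0%, 0.055%, 0.266% and 0.862% of all 10903 probes. At an unadjusted p under 0.05 there were 7 phosphatase probes at the low rate, 7 at the mid rate, 6 at the high rate and 6 in the trend. These are 16.7%, 16.7%, 14.3% and 14.3% of the 42, where 7%, 13%, 11.9% and 13.3% of all probes passed. In testis, limma called none of 46 phosphatase probes, where it called 0%, 0% and 0.0123% of all 16325 probes at the low, mid and high rates and 0.00613% in the trend. At an unadjusted p under 0.05 there were 1, 5 and 8 phosphatase probes at the low, mid and high rates, 2.17%, 10.9% and 17.4% of the 46, and 10 in the trend, or 21.7%. Of all testis probes, 3.47%, 9.62%, 14.8% and 16.3% passed in the same comparisons. The 3 rates of a tissue share the same 3 control arrays, so their differences are not independent of each other.

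**Figure D2:**
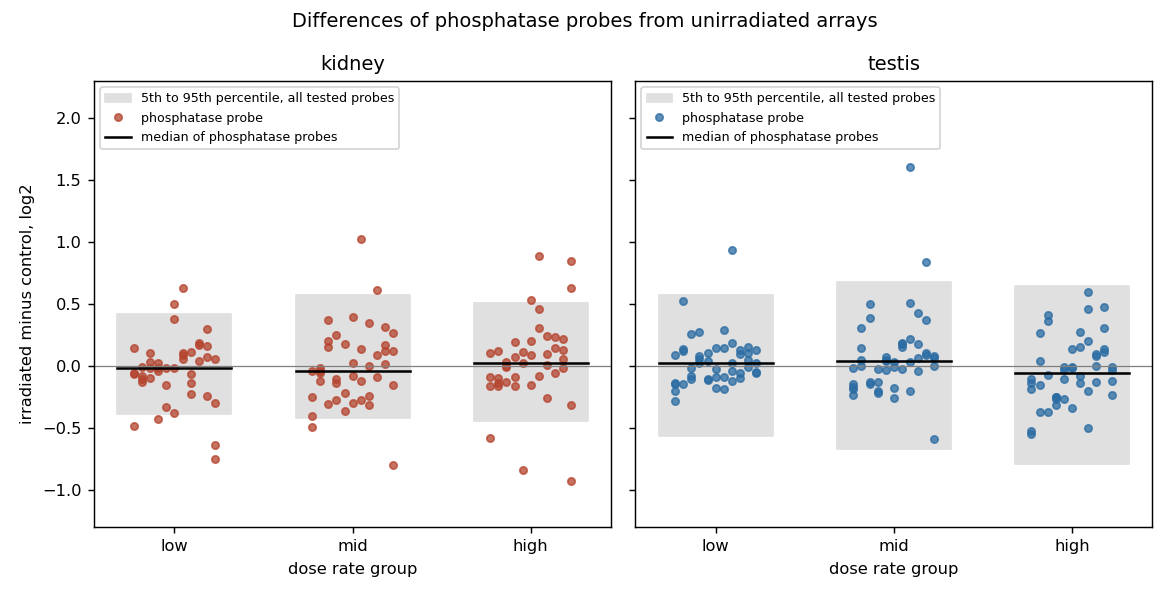
Difference in log2 level from control of each tested phosphatase probe (points) at the low, mid and high dose rates in kidney (left) and testis (right); black bars are the medians of the phosphatase probes and grey bands span the 5th to the 95th percentile of all probes tested in the tissue. The kidney medians are -0.02, -0.04 and 0.02 and the testis medians 0.02, 0.04 and -0.06, and most points lie inside the bands.

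The precision behind these counts was moderate. The median standard error of a difference over phosphatase probes was 0.18 in kidney and 0.14 in testis on the log2 scale. The 95% interval of the difference lay within a 2-fold change either way for 38, 37 and 36 of 42 probes at the low, mid and high rates in kidney, and for 41, 40 and 39 of 46 in testis. In simulated data with the spread of the kidney arrays, 60% of probes changed by 1 on the log2 scale were called at the high rate and none of those changed by 0.5. With the spread of the testis arrays the shares were 42.5% and 3.5%. Changes of 2-fold or less in single genes could thus be missed with 3 arrays a group. Larger changes were not simulated, so no size above which a change would be found is given.

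In kidney the smallest p at each rate was that of Ppp1r15b, the eIF2α phosphatase subunit. Its level was 7.06, 6.94 and 7.08 on control arrays, 5.95, 6.31 and 6.54 on low-rate arrays, 6.44, 5.83 and 6.41 on mid-rate arrays and 6.0, 6.36 and 5.92 on high-rate arrays. Every irradiated array lay below every control array. It was above background on 3 of 3 control arrays, 1 low, 2 mid and no high-rate array. The fitted difference was -0.76 ± 0.20 at the low rate and -0.80 ± 0.20 at the mid rate (SE, limma adjusted p = 0.577 and 0.185). At the high rate it was not above background, with means of 6.09 and 7.03 on high-rate and control arrays. Against the limit of detection it was at least 1.54-fold lower at the high rate (limma adjusted p = 0.0801). None of these passed the threshold.

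**Figure D3:**
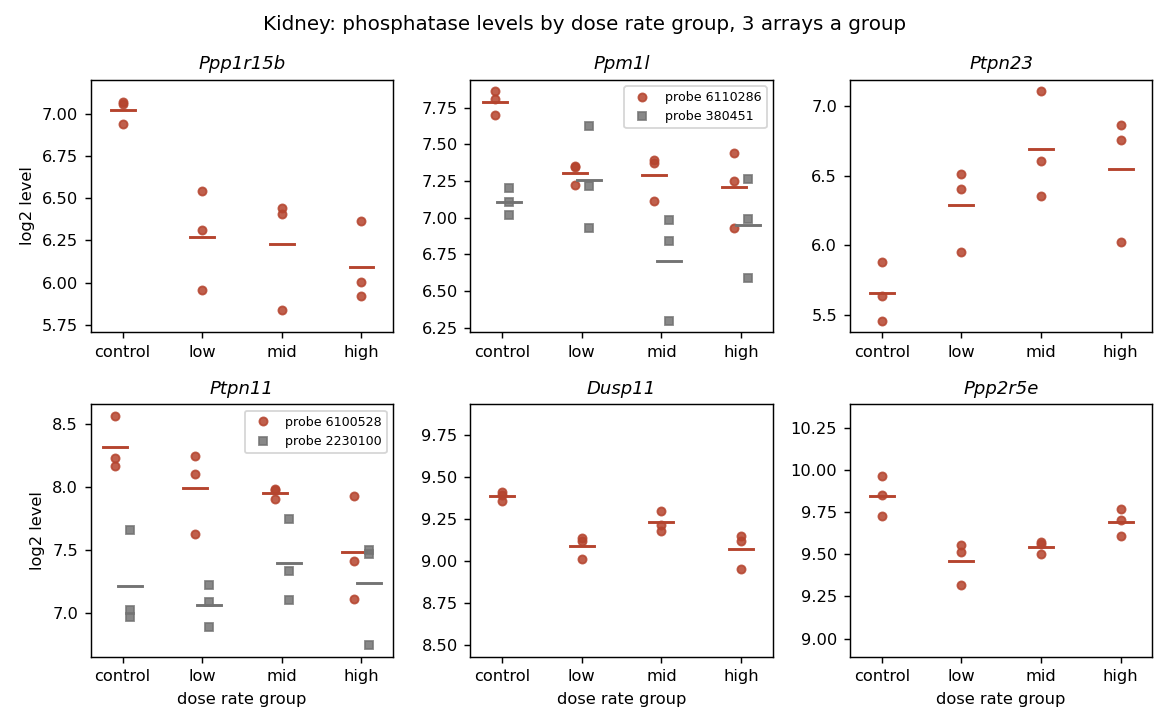
Levels of 6 phosphatase genes on the 12 kidney arrays by dose rate group (log2, points are arrays, bars are group means; the axes differ between panels). Ppp1r15b, Ppm1l with probe 6110286 and Dusp11 lie below the control arrays on every irradiated array and Ptpn23 lies above them, and the second probes of Ppm1l and Ptpn11 (grey squares) overlap their controls in 5 of 6 comparisons with control.

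Ppm1l, a PP2C-type enzyme, followed with probe 6110286. Its level was 7.86, 7.70 and 7.81 on control arrays, 7.22, 7.36 and 7.34 on low-rate arrays, 7.37, 7.12 and 7.39 on mid-rate arrays and 6.93, 7.44 and 7.25 on high-rate arrays. Here too no irradiated array reached the control range. The differences were -0.48, -0.50 and -0.58 ± 0.14 at the low, mid and high rates (SE, limma adjusted p = 0.590, 0.204 and 0.115). The gene's probe 380451 gave 0.15, -0.40 and -0.16 ± 0.23, so the probes differed in sign at the low rate.

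Ptpn23, the endosomal sorting protein, lay above its controls. Its level was 5.46, 5.88 and 5.64 on control arrays, 6.40, 6.51 and 5.96 on low-rate arrays, 6.61, 7.10 and 6.35 on mid-rate arrays and 6.86, 6.03 and 6.76 on high-rate arrays. The groups did not overlap, but it was above background on no control array and on 1 low, 3 mid and 2 high-rate arrays. It therefore entered the test only through irradiated arrays and had to be high there to be tested. Against the limit of detection it was at least 1.12-fold higher at the mid rate and at least 1.02-fold higher at the high rate (limma adjusted p = 0.185 and 0.182).

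Ptpn11, the SHP-2 enzyme, was 8.17, 8.23 and 8.57 on control arrays, 7.63, 8.11 and 8.25 on low-rate arrays, 7.98, 7.91 and 7.98 on mid-rate arrays and 7.93, 7.11 and 7.41 on high-rate arrays with probe 6100528. The mid-rate and high-rate arrays lay below the control range. The difference at the high rate was -0.84 ± 0.21 (SE, limma adjusted p = 0.134), whereas probe 2230100 of the same gene gave 0.02 ± 0.25.

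Several other kidney phosphatases lay apart from their controls at 1 or more rates. Dusp11, the RNA triphosphatase, lay between 8.95 and 9.30 on all irradiated arrays and was 9.39, 9.41 and 9.36 on control arrays, with differences of -0.30, -0.16 and -0.31 ± 0.10 at the low, mid and high rates (SE, limma adjusted p = 0.629, 0.520 and 0.210). Ppp2r5e, the B56ε subunit of PP2A, was 9.96, 9.85 and 9.73 on control arrays, 9.32, 9.56 and 9.51 on low-rate, 9.56, 9.50 and 9.57 on mid-rate and 9.61, 9.77 and 9.70 on high-rate arrays. Only the high-rate arrays overlapped the controls, and the differences were -0.38, -0.30 and -0.15 ± 0.11 (SE, limma adjusted p = 0.583, 0.282 and 0.645). Ppp1r10 was 9.65, 9.90 and 9.99 on mid-rate arrays, above the control arrays at 9.44, 9.12 and 9.13, a difference of 0.61 ± 0.16 (SE, limma adjusted p = 0.196). The PP1 inhibitor Ppp1r11 was 9.90, 9.98 and 9.99 on low-rate arrays and 9.47, 9.59 and 9.69 on control arrays, a difference of 0.38 ± 0.11 without overlap. At the mid and high rates it differed by 0.03 and 0.20 ± 0.11, with overlap.

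The receptor enzyme Ptprd was 9.19, 9.21 and 9.20 on high-rate arrays and 8.46, 8.81 and 8.94 on control arrays, and the difference was 0.46 ± 0.14 (SE, limma adjusted p = 0.199). Ppp6r1, a PP6 subunit, and Dusp16, the JNK phosphatase, both differed by -0.31 at the mid rate, the first without overlap and the second with it (limma adjusted p = 0.304 and 0.374). Ptpn1 differed by -0.43 at the low rate, without overlap, and by 0.19 at the high rate. Ppp4r1 probe 6420402 was above background on all 3 high-rate arrays and on no other kidney array, so it too was tested only through the group where it was high.

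By family, of 7 PP1 regulatory genes tested in kidney, 2 passed an unadjusted p under 0.05 at the low rate, 2 at the mid rate and 1 at the high rate. Of 5 PPM genes 1 passed at each rate, Ppm1l each time. Of all probes 7%, 13% and 11.9% passed at the low, mid and high rates, and counts of 1 or 2 in lists this short are given as a description. None of the 4 catalytic subunit genes passed at any rate, and Ppp1ca, for example, differed by 0.16, 0.01 and 0.06 ± 0.11 at the low, mid and high rates. Of the 42 probes, 9, 14 and 10 had groups that did not overlap with control at the low, mid and high rates, or 21.4%, 33.3% and 23.8%, where 12.3%, 20.8% and 13.8% of all probes did.

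Markers of other cells also differed in these comparisons. The 5 tested genes of a 9-gene leukocyte list included Cd52, which was above background on no control and no low-rate array in kidney. The other 4 were all higher at the low rate, with a median difference of 0.72 and an unadjusted p under 0.05 each, though limma called none. The summed signal of the 5 was 2781 to 3692 on control arrays, 4235 to 7446 on low-rate, 3611 to 4699 on mid-rate and 2888 to 4336 on high-rate arrays. The 3 proximal tubule genes summed to 43475 to 44958 on control arrays, 37391 to 41656 on low-rate, 37313 to 44488 on mid-rate and 38383 to 42931 on high-rate arrays. The part of these cells in the phosphatase differences was not tested. Ptprc, which leukocytes express, stayed below background on all kidney arrays.

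Over the 46 testis phosphatase probes the median size of the difference was 0.11, 0.15 and 0.17 at the low, mid and high rates. Over all testis probes it was 0.12, 0.17 and 0.21. Groups without overlap were mostly at the mid and high rates, and their shares are given below. Ppm1m, a PP2C-type enzyme, was 11.72, 11.68 and 11.65 on control arrays, 11.65, 11.76 and 11.61 on low-rate arrays, 11.92, 11.85 and 11.56 on mid-rate arrays and 12.20, 12.15 and 12.15 on high-rate arrays. The high-rate arrays stood above all the others. The difference at the high rate was 0.48 ± 0.10 (SE, limma adjusted p = 0.129), and at the low and mid rates it was -0.01 and 0.09.

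**Figure D4:**
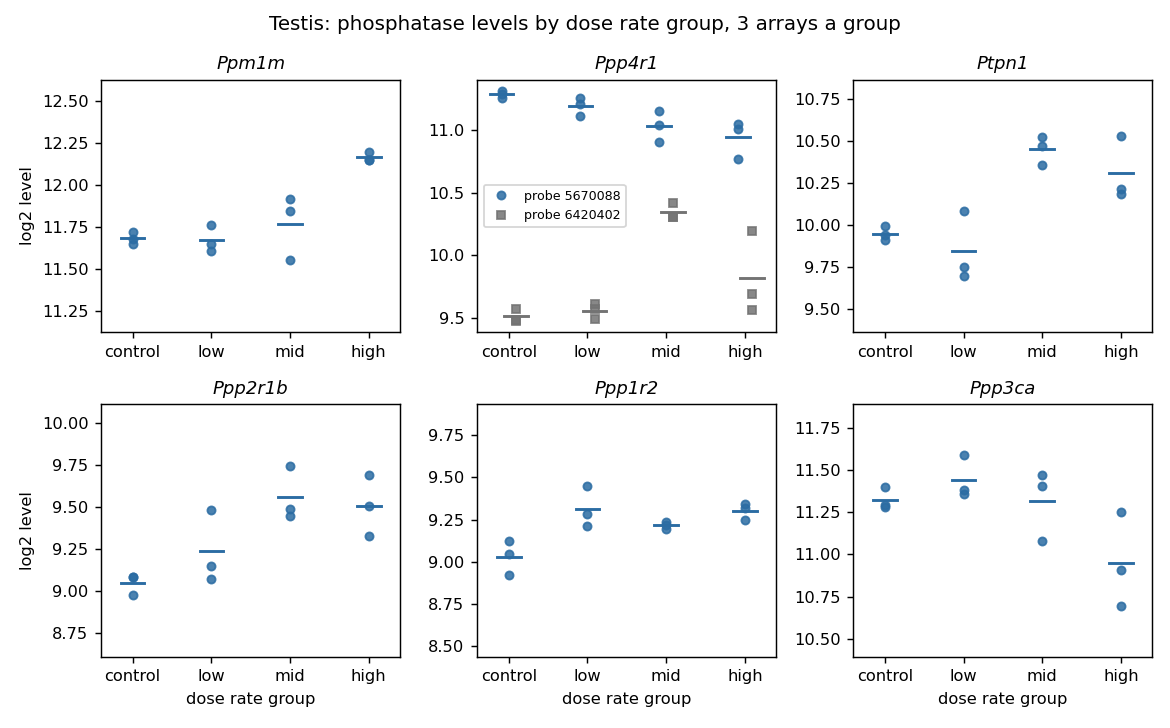
Levels of 6 phosphatase genes on the 12 testis arrays by dose rate group (log2, points are arrays, bars are group means; the axes differ between panels). The high-rate arrays of Ppm1m lie at 12.15 to 12.20, above all other arrays, and the probes of Ppp4r1 (blue circles and grey squares) lie on opposite sides of their controls at the mid rate.

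Ppp4r1, a regulatory subunit of PP4, gave opposite answers with its probes. With probe 5670088 it was 11.31, 11.29 and 11.26 on control arrays, 11.26, 11.21 and 11.12 on low-rate arrays, 10.90, 11.04 and 11.15 on mid-rate arrays and 11.01, 10.77 and 11.05 on high-rate arrays. With probe 6420402 it was 9.49, 9.57 and 9.48 on control arrays, 9.57, 9.49 and 9.61 on low-rate arrays, 10.42, 10.31 and 10.31 on mid-rate arrays and 10.20, 9.57 and 9.69 on high-rate arrays. At the mid rate the difference was -0.26 ± 0.10 with the first probe and 0.84 ± 0.15 with the second (SE, limma adjusted p = 0.460 and 0.0985), each without overlap. Both probes were above background on all 12 testis arrays, and the annotation used here does not say which transcripts they match.

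Ptpn1 averaged 9.95 ± 0.04 on control arrays (SD, n = 3) and was 9.75, 10.09 and 9.70 on low-rate arrays, 10.36, 10.47 and 10.52 on mid-rate arrays and 10.53, 10.22 and 10.18 on high-rate arrays. It was higher by 0.50 ± 0.13 at the mid rate and 0.36 ± 0.13 at the high rate, with no overlap in either (SE, limma adjusted p = 0.208 and 0.250). The PP2A scaffold Ppp2r1b was 9.09, 8.98 and 9.09 on control arrays, 9.49, 9.15 and 9.07 on low-rate, 9.75, 9.49 and 9.45 on mid-rate and 9.33, 9.69 and 9.51 on high-rate arrays. The mid-rate and high-rate arrays lay above the controls. Its differences were 0.51 ± 0.14 at the mid rate and 0.46 ± 0.14 at the high rate (SE, limma adjusted p = 0.245 and 0.202). Ppp1r2, the PP1 inhibitor, was above the control range at all 3 rates, with differences of 0.29, 0.19 and 0.27 ± 0.09, and it was the only phosphatase with an unadjusted p under 0.05 at the low rate (limma adjusted p of 1.00, 0.567 and 0.230).

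Lower levels at the high rate were measured for Ppp3ca, the calcineurin catalytic subunit, at 11.25, 10.91 and 10.70 on high-rate arrays and 11.29, 11.40 and 11.28 on control arrays. The difference was -0.37 ± 0.16 (SE, limma adjusted p = 0.310), without overlap. Its partner in the testis, Ppp3r2, lay between 13.86 and 14.04 on all 12 arrays. Ppp1r10 probe 3170725 differed by -0.37 ± 0.12 at the high rate, without overlap, and its probe 3610484 by 0.08 ± 0.10. Ppm1b was split in the same way, at 0.27 with probe 3610215 and -0.55 with probe 380180. Ppp4r3b, another PP4 subunit, was higher by 0.37 at the mid rate without overlap. Ppp1r14c, a PP1 inhibitor, was above background on no testis control array and on 2 low, 2 mid and 2 high-rate arrays. It therefore entered the test only through irradiated arrays and had to be high there to be tested. Against the limit of detection it was at least 1.26-fold higher at the mid rate (limma adjusted p = 0.590).

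At the low, mid and high rates, 45, 44 and 46 of the 46 testis probes lay between the 5th and 95th percentile of all probes, as did 36, 38 and 35 of the 42 kidney probes. Of the 46 testis probes, 2, 12 and 11 had groups that did not overlap with control at the low, mid and high rates, or 4.35%, 26.1% and 23.9%, where 9.17%, 18.3% and 21.2% of all probes did. Within families, 2 of 5 PPM genes and 1 of 5 catalytic subunit genes had an unadjusted p under 0.05 at the high rate, where 14.8% of all probes did, and none of either at the mid rate. The 3 Leydig cell markers summed to 9015 to 10893 on control arrays, 6465 to 10633 on low-rate, 5112 to 9793 on mid-rate and 8001 to 11344 on high-rate arrays. The 1 spermatid marker was 60929 to 62905 on control arrays and 59581 to 61363 on high-rate arrays. Their part in the phosphatase differences was not tested.

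The trend over the 4 groups in order of dose rate gave the smallest adjusted p for Ppp1r15b in kidney, with a slope of -0.28 ± 0.07 per step (SE, limma adjusted p = 0.0894), and for Ptpn11 probe 6100528, with -0.26 ± 0.07 (0.0941). In testis it was smallest for Ppp4r1 probe 5670088, at -0.12 ± 0.03 (0.117), and for Ppm1m, at 0.15 ± 0.04 (0.127). Ptpn11 probe 2230100 differed from kidney controls by -0.15, 0.18 and 0.02 at the low, mid and high rates. Ppp4r1 probe 6420402 differed from testis controls by 0.05, 0.84 and 0.31, opposite in sign to the slope of the other probe. The slope of Ppp1r15b rests in part on signals at or under the limit of detection, since no high-rate array was above background, so its grading between the 3 dose rates could not be read.

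Whether the tissues differed in response was tested on the 37 phosphatase probes tested in both. The fit treated all 24 arrays as independent, so a kidney and a testis of the same mouse were not paired. No difference between the kidney and the testis effect was called by limma at any rate, among phosphatases or among all 8797 probes (0% called at each rate). At an unadjusted p under 0.05 there were 3, 6 and 7 phosphatase probes at the low, mid and high rates, or 8.11%, 16.2% and 18.9%, where 5.8%, 8.46% and 13.1% of all probes passed. At the high rate the kidney-minus-testis difference of effects was -0.56 ± 0.14 for Ppm1m (SE, limma adjusted p = 0.0969). Ppp1r15b in testis differed from control by 0.02, -0.20 and -0.25 ± 0.13 at the low, mid and high rates, beside kidney differences of -0.76 and -0.80 ± 0.20 at the low and mid rates and the bound given above at the high rate.

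Genes around the phosphatases were read from fixed lists. Of 23 genes for MAP kinases, the kinases upstream of them and immediate early factors, 7 could be named, 4 of them tested in kidney and 6 in testis. In testis at the high rate, Mapk3, the kinase ERK1, differed by -0.62 ± 0.26 with its brighter probe, with overlap (SE, limma adjusted p = 0.322). Mapk10, a JNK, was above background on 1 control array and on no high-rate array there, so no fold is given. In kidney, Junb, an immediate early transcription factor, differed by -0.41 ± 0.14 at the mid rate, without overlap (SE, limma adjusted p = 0.260), and it was the only one of the 4 with an unadjusted p under 0.05 at any rate. Of 24 other phosphatases and their modulators 9 could be named, 4 tested in kidney and 6 in testis. Cdc14b, a dual-specificity phosphatase, was higher in kidney by 0.39 ± 0.14 at the mid rate and 0.41 ± 0.14 at the high rate, and in testis by 1.01 ± 0.35 at the mid rate, each without overlap (SE, limma adjusted p = 0.30, 0.272 and 0.386). In testis it was not higher at the high rate, at 6.77 ± 0.71 against 6.79 ± 0.32 on control arrays (SD, n = 3 each). Cdc25a, which activates cyclin-dependent kinases, differed in testis by -0.36 ± 0.14 at the high rate. All 6 tested genes of that list were lower there, but Cdc14b and Styx hardly so. Styx averaged 6.49 ± 0.47 on control and 6.48 ± 0.31 on high-rate arrays (SD, n = 3 each). The Ssh3 means, 5.80 on control and 5.07 on high-rate arrays, lay under the lowest testis signal above background, 6.41. Of 13 p53 targets 5 could be named, and none had an unadjusted p under 0.05 at any single rate in either tissue with its brightest probe, while Zmat3 did in the kidney trend. Tnfrsf10b, a death receptor gene, was the exception with its dimmer probe 4120372, which averaged 5.09 ± 0.04 on high-rate and 7.05 ± 0.47 on control arrays of testis (SD, n = 3 each). It was above background on no high-rate array and on 2 control arrays, and was at least 1.10-fold lower at the high rate (limma adjusted p = 0.0490). Its brighter probe 1500451, above background on all 12 testis arrays, differed by -0.04 ± 0.18 there. No other probe of these 3 lists was called in any comparison.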

How the data were processed

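Illumina Mouse-6 arrays of 12 kidney and 12 testis samples were used. Per the file headers, the authors made the kidney intensities in BeadStudio, subtracting background and scaling on rank-invariant probes. The deposited detection score is a fraction from 0 to 1. Testis values are intensities of the deposited value table. How the authors normalized them is not given in the labels or the files analysed here. Bead numbers were deposited too and only described, and 23 per-sample columns were not used.

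Probes were named through the gene number in the kidney table. Signals were quantile normalized within a tissue on the linear scale, floored at 16, and converted to log2. A kidney probe counted as above background at a detection score over 0.99, and a testis probe above percentile 99 of the mirrored negative signals (84.5 to 134 by array). Probes above background on 3 of 12 arrays were tested, 10903 in kidney and 16325 in testis. limma 3.58.1 in R 4.3.3 fitted all 12 arrays of a tissue, with Benjamini-Hochberg adjustment over all probes tested and a two-sided threshold of 0.05, also in the tests of trend and of the tissue difference. A normexp step was an alternative only, since the signals were already background-subtracted. The script was tested on simulated data with 200 changed probes.

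A gene with several probes was given by its brightest tested probe unless stated, and counts of genes use it. A group with no array above background was compared as a bound: the other group's mean against the mean of, per array, the higher of the lowest signal above background and the probe's own. Named members were the 8 with the smallest p in a comparison, catalytic subunits, listed genes of known role, those farthest apart between tissues and the brightest, and members needed to account for the rest. The members and lists were chosen with earlier results of these data known. No depth applies to arrays, whose number limits the precision. Alternatives covered scaling, floor, filter, background step, variance model, array weights, replicate block and leaving out arrays. 1 gene of the lists is not reported here.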

Additional observations from a re-analysis of the deposited data

How the results depend on the processing

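No phosphatase probe was called in the main setting, and 233 of the 247 recomputed counts of called phosphatase probes were also 0 or within 1.5 times. In kidney at the high rate, a floor of 64 called 2 (Ppp1r15b lower, Ppp4r1 higher) and array weights called 11, with 55 and 2011 of all probes called against 29. At the mid rate, array weights called 7, with 1498 of all probes called against 6. In the kidney trend, median scaling called 1 (Ppp1r15b). In testis at the mid rate, testing only probes detected on all 12 arrays called 1 and array weights 1 (Ppp4r1 probe 6420402 in each), and a variance trend with robust estimation called 2 (Ppp4r1 and Ptpn1), with 108, 43 and 202 of all probes called against 0. At the high rate in testis, probes detected on all 12 arrays gave 1 (Ppm1m) and the robust trend 2 (Ppm1m and Ppp1r10), with 161 and 385 of all probes called against 2. The filter leaves 10246 testis probes to test. For the other settings the cause was not tested.

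Leaving out 1 array at a time gave 0 to 1 phosphatase calls in the kidney trend (Ppp1r15b without low-rate array 2, Ptpn23 without high-rate array 2) and 0 to 1 in testis at the mid rate (Ppp4r1 without high-rate array H132), and 0 in the other comparisons. The calls over all probes moved more: 0 to 170 at the high rate in kidney (170 without control array 2, 0 without control array 3, mid-rate array 3 or high-rate array 3), 0 to 28 at the mid rate (28 without control array 4) and 0 to 350 in the kidney trend (350 without control array 2, 0 without control array 3 or high-rate array 3). In testis they were 0 to 36 at the high rate (36 without array H132). For the difference between the kidney and the testis effect they were 0 to 4 at the low and mid rates and 0 to 91 at the high rate. Leaving out the kidney arrays numbered 2 together, an alternative chosen after seeing the data, called 3 in the trend (Ppp1r15b lower, Ptpn23 higher, Ptpn11 lower) and none at single rates. The low-rate difference of Ppp4r1 probe 6420402 in kidney, -0.64, became 0.00488 there and 0.00196 with the floor of 64, in a probe below background in both groups.

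Kidney groups share some replicate numbers. Deviations of 13 same-numbered pairs from their group means correlated at -0.166 to 0.356 (median 0.142) and 9 exceeded 0.1, against 8 of 41 differently numbered pairs (median -0.05). Same-numbered arrays were thus more alike on balance, but not every pair exceeded 0.1 and the pair numbered 1 was lowest, so the block was kept as an alternative. A fit with the replicate block called 1 phosphatase in the kidney trend (Ptpn11 lower) and none at single rates, with 15 of all probes called in the trend against 94. Testis groups share no numbers.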
